A study of Glycine soja and Glycine max with 13 samples.

Results

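β-Conglycinin, the 7S globulin, was followed through 5 gene identifiers among 43517 in the table of counts. The α′ subunit gene was Glyma.10G246300, the α subunit genes were Glyma.20G148300 and Glyma.20G148400, and the β subunit genes were Glyma.20G148200 and Glyma.20G146200. They were taken by identifier for the subunit each encodes. The names come from knowledge of the soybean genome, and neither these nor the glycinin names below were checked against an annotation. RNA was sequenced from seeds collected 13 days after flowering of field-grown plants. The samples were 6 lines of cultivated soybean (Glycine max), named df3, df12, df14, df17, df36 and df43, and 7 lines of wild soybean (Glycine soja), named ys1, ys16, ys17, ys23, ys26, ys29 and ys34. A sample stood for 1 line, errors are therefore between lines, and the number of plants or seeds behind it was not stated. The title of the series set the comparison of cultivated with wild seeds in relation to seed weight.

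β-Conglycinin is a vicilin-type globulin assembled from α′, α and β subunits and laid down in the protein storage vacuoles of the cotyledons. Together with glycinin, the 11S globulin, it makes up most of the protein reserve of the mature soybean seed. The α′ and α subunits carry an N-terminal extension that the β subunit lacks, and the β subunit is known from developing cultivated seeds to accumulate later than the others and to be poor in sulfur amino acids.

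Library totals lay between 12.7 M and 26.0 M counts (M, mega). Levels are given as CPM, counts scaled to a total of 1 M per line with TMM factors, and 3 counts corresponded to 0.111 to 0.243 CPM. Intervals cover counting error only. Among other seed genes, the seed coat sugar transporters GmSWEET10a (Glyma.15G049200) and GmSWEET10b (Glyma.08G183500) were present in every line, with lowest values of 10.9 CPM for the first and 216 CPM for the second. The oleosin gene GmOLEO1 (Glyma.20G196600), whose product coats oil bodies, was listed at 0 in df14 and reached 73.4 CPM in ys26.

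The transcript of the α′ gene spanned a 1227-fold range over the lines, and cultivated and wild lines were mixed along it. In cultivated lines Glyma.10G246300 was lowest in df14 at 22.8 CPM, had a median of 454 CPM and was highest in df12 at 9384 CPM. In wild lines it was lowest in ys34 at 7.68 CPM, had a median of 2193 CPM and was highest in ys1 at 9415 CPM. The highest line of each group therefore stood at nearly the same level, and the counting intervals of these 2 lines overlapped. From high to low the order was ys1, df12, ys23, ys26, df17, ys17, df43, df3, df36, df14, ys16, ys29 and ys34, and only ys1 with df12 and ys29 with ys34 were neighbours whose intervals overlapped. Across all 13 lines the SD of its log2 CPM was 3.95, the 9th highest of 31420 tested genes, beside a median of 0.466 over those genes. RNA was taken from seeds in bulk, so fewer cells of a type and less RNA per cell cannot be told apart. All lines carry the same day after flowering, and neither a batch nor the stage of the embryo is given for any of them.

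The α genes Glyma.20G148300 and Glyma.20G148400 gave a single measurement. Their counts were identical in 1 line and differed by at most 1.09% in any line, with a median difference of 0.284%, and no source used here states how reads that match several genes were counted. Their mean is used below as the α pair. In cultivated lines the pair was lowest in df14 at 40.9 CPM, had a median of 810 CPM and was highest in df12 at 6569 CPM. In wild lines it was lowest in ys34 at 6.22 CPM, had a median of 2561 CPM and was highest in ys1 at 9597 CPM. The range was 1544-fold, the groups overlapped over most of it, and no 2 neighbouring lines had overlapping intervals.

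The β genes stayed near their lowest level in most lines. Glyma.20G148200 was lowest in df14 at 0.517 CPM among cultivated lines, where its median was 1.03 CPM and its highest value 36.8 CPM in df12. Among wild lines it was lowest in ys34 at 0.543 CPM, with a median of 0.949 CPM and a highest value of 4.65 CPM in ys17. Set beside df14, its overall lowest line, 8 of the other 12 lines had overlapping counting intervals, and the exceptions were df12, ys17, df17 (4.44 CPM) and ys1 (1.81 CPM). Line df12 stood far above the rest, and df17 and ys17 stood together at an intermediate level.

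The second β gene, Glyma.20G146200, gave nearly the same picture with 1 further line. It was lowest in df14 at 0.517 CPM among cultivated lines, had a median of 0.862 CPM and reached 44.6 CPM in df12. Among wild lines it was lowest in ys34 at 0.543 CPM, had a median of 1.08 CPM and reached 20.7 CPM in ys1, ahead of ys17 at 4.93 CPM. Intervals of 7 of the other 12 lines overlapped that of df14, and the exceptions were df12, ys1, ys17, df17 (4.196 CPM) and ys23 (1.77 CPM). Its range was 86.3-fold and that of Glyma.20G148200 was 71.1-fold.

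**Figure D1:**
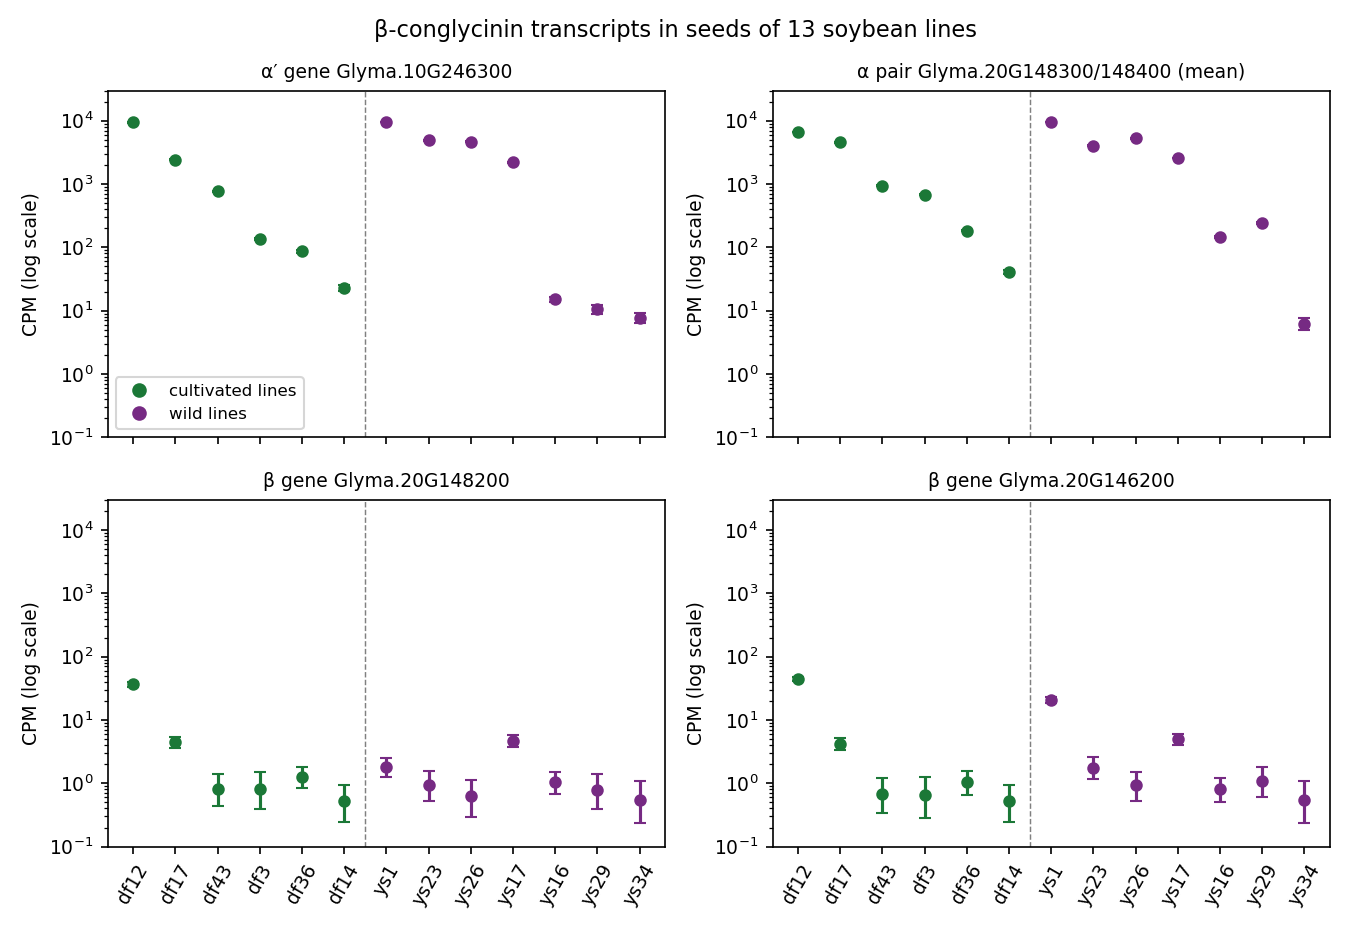
CPM of the α′ gene, the α pair and both β genes (vertical axes, log scale) in each line, cultivated lines on the left and wild lines on the right, each group ordered by its α′ level; bars are exact 95% Poisson intervals of the counts. The α′ gene spans 9384 CPM in df12 to 22.8 CPM in df14 among cultivated lines and 9415 CPM in ys1 to 7.68 CPM in ys34 among wild lines, while the β genes lie near 1 CPM in most lines.

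The onset of the subunits was described by how many lines reached a level. A level of 10 CPM was reached by the α′ gene in all 6 cultivated and 6 of 7 wild lines, and by the α pair in the same numbers. The line below it was ys34 in both cases. For the β genes 10 CPM was reached by Glyma.20G148200 in 1 cultivated and 0 wild lines and by Glyma.20G146200 in 1 cultivated and 1 wild line. At 100 CPM the counts were 4 cultivated and 4 wild lines for the α′ gene, 5 and 6 for the α pair, and 0 and 0 for either β gene. At 1000 CPM they were 2 and 4 lines for both the α′ gene and the α pair. These levels are not per transcript length, since no gene length was used here, so they count lines and do not rank the genes by abundance.

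A comparison of each line with the lowest line of the same gene does not depend on length. In ys26 the α′ gene stood at 609 times and the α pair at 846 times their lowest line, while Glyma.20G148200 stood at 1.20 and Glyma.20G146200 at 1.79 times theirs, within counting error of df14. In ys23 the α′ gene stood at 637 times its lowest line, and the β genes at 1.84 (Glyma.20G148200) and 3.43 times (Glyma.20G146200). In df43 the α′ gene stood at 100.4 times and the β genes at 1.58 (Glyma.20G148200) and 1.33 times (Glyma.20G146200). In these lines the α-type genes were therefore far above their lowest level, and the β genes were not. In df12 the β genes were far above theirs as well, at 71.1 (Glyma.20G148200) and 86.3 times (Glyma.20G146200). In ys1 the same genes stood at 3.51 and 40.1 times. The β ratios rest on few counts, since df14 held 10 of each β gene, against 113 of the α′ gene in ys34.

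The order of lines by β genes was not that by the α′ gene. These pairs of lines were chosen after their values were seen, and each line is 1 library. Line df12 had 0.997 times the α′ level of ys1 and 0.684 times its α pair, but 20.3 times its Glyma.20G148200 and 2.15 times its Glyma.20G146200. Line ys26 had 2.13 times the α′ level of ys17, whereas ys17 had 7.52 times the Glyma.20G148200 and 5.32 times the Glyma.20G146200 of ys26. Lines df17 and ys17, with an α′ ratio of 1.11, had β ratios of 0.954 (Glyma.20G148200) and 0.851 (Glyma.20G146200) and overlapping intervals for both β genes.

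**Figure D2:**
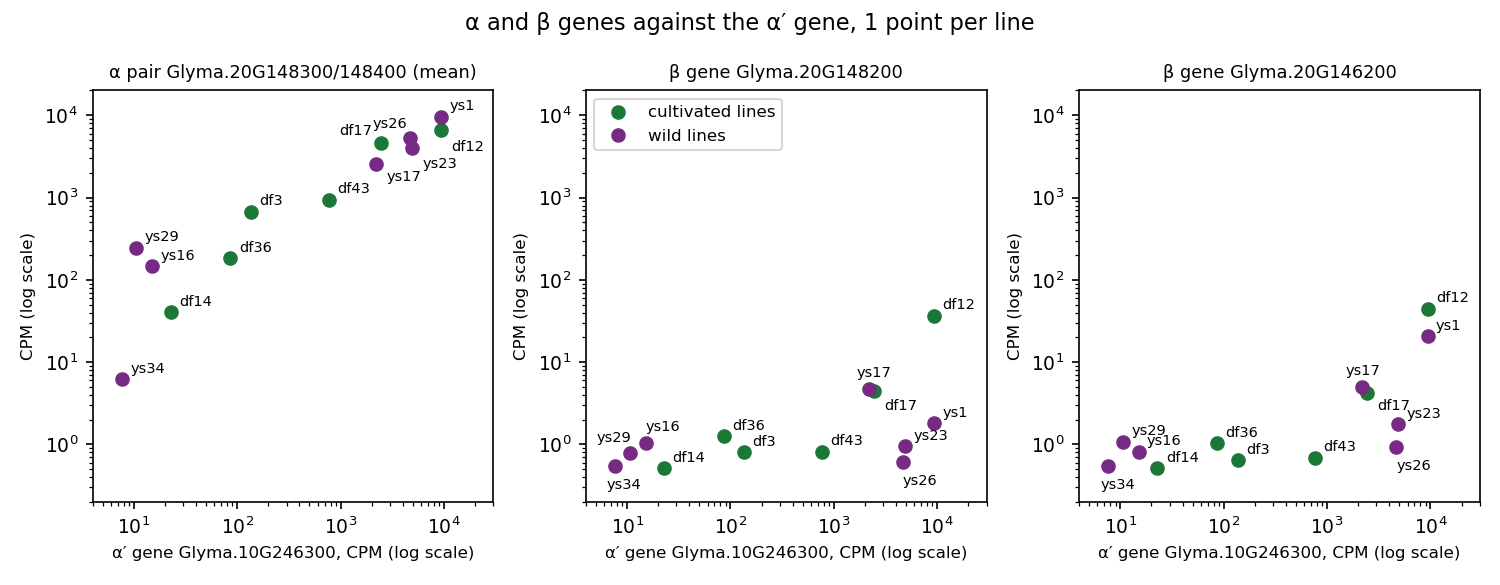
CPM of the α pair and of each β gene (vertical axes, log scale) against CPM of the α′ gene (horizontal axes, log scale), 1 point per line, cultivated and wild lines in separate colours. The α pair rises along with the α′ gene, whereas the β genes stay near 1 CPM up to an α′ level of 771 CPM in df43 and range from 0.619 CPM (Glyma.20G148200 in ys26) to 44.6 CPM (Glyma.20G146200 in df12) above it.

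Relations between the 4 measurements were tested on log2 CPM over the 13 lines, with p-values from 100000 permutations adjusted over the 6 pairs. Neighbours in the α′ order lay at most 2.50 apart in log2 CPM over a range of 10.2. For the α pair the largest gap was 2.70 over a range of 10.6. For Glyma.20G148200 df12 stood 2.95 above the next line, ys17, in a range of 5.87. The largest gap of Glyma.20G146200 was 2.05 in a range of 6.15, with df12 and ys1 above it. The lines were not treated as separate clusters, although df12 stood apart for Glyma.20G148200. The α′ gene and the α pair were high in the same lines (Pearson r = 0.930, permutation p = 2e-05, adjusted p = 0.00012; Spearman rho = 0.945, permutation p = 2e-05, adjusted p = 0.00012). Without ys29 and ys34, the lines farthest from the median α′ level, r was 0.966. Cultivated lines alone gave 0.964 and wild lines alone 0.917 (exact permutation, adjusted p = 0.00834 and 0.00476). The α′ gene and Glyma.20G146200 were also related (r = 0.708, permutation p = 0.00454, adjusted p = 0.00908; rho = 0.714, permutation p = 0.00811, adjusted p = 0.0122). Without ys29 and ys34 this r was 0.707 (adjusted p = 0.0378, permutation). Within cultivated lines alone it was 0.849 (exact permutation, adjusted p = 0.0188), and within wild lines alone it was 0.670 (exact permutation, adjusted p = 0.123). By rank neither group passed (rho = 0.829 in cultivated and 0.75 in wild lines, exact permutation adjusted p = 0.0583 and 0.0994).

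Glyma.20G148200 was also set against the α-type genes. With the α′ gene r was 0.563 (permutation p = 0.0306, adjusted p = 0.0367; rho = 0.582, permutation p = 0.0412, adjusted p = 0.0412), and with the α pair it was 0.542 (permutation p = 0.052, adjusted p = 0.052; rho = 0.588, permutation p = 0.0391, adjusted p = 0.0412). Without ys29 and ys34 the r with the α′ gene was 0.506 and did not pass the threshold in the remaining 11 lines (permutation adjusted p = 0.121). Over lines left out in turn it stayed between 0.509 and 0.662, and the call was lost without df12, df14, df3, ys29 or ys34 (permutation adjusted p of 0.0977, 0.0739, 0.0514, 0.0572 and 0.0718). By rank the calls with the α′ gene and with the α pair were each lost without df12, df14, df17, df3, df43, ys1, ys29 or ys34. The permutation adjusted p of rho was then 0.055 to 0.116. With the α′ gene r was 0.862 within cultivated lines (exact permutation adjusted p = 0.0188), and within wild lines it was 0.438 (exact permutation adjusted p = 0.356). The rank relation passed in neither group (rho = 0.829 in cultivated and 0.5 in wild lines, exact permutation adjusted p = 0.0583 and 0.32). Whether the relation differed between the groups was not tested.

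The β genes followed each other with r = 0.866 (permutation p = 0.0007, adjusted p = 0.0021; rho = 0.846, permutation p = 0.00048, adjusted p = 0.00144), which became 0.714 (permutation adjusted p = 0.0555) without df12 and ys17, the lines farthest from the median Glyma.20G148200 level. By rank the relation passed in those 11 lines (rho = 0.764, permutation adjusted p = 0.0171). Within cultivated lines r was 0.999 and within wild lines 0.712 (exact permutation adjusted p = 0.00834 and 0.123). Among cultivated lines the log2 CPM of the β genes differed by -0.28 to 0.28 in any line (Glyma.20G148200 minus Glyma.20G146200). Among wild lines the difference ran from -3.44 in ys1, through a median of -0.40, to 0.31 in ys16. In ys1 Glyma.20G148200 had 34 counts and Glyma.20G146200 had 389. The next largest wild difference, -0.83 in ys23, rested on 15 and 28 counts with overlapping intervals, so the wide wild range came mainly from ys1, which is 1 library. Between the α pair and Glyma.20G146200 r was 0.683 (permutation p = 0.0109, adjusted p = 0.0163; rho = 0.786, permutation p = 0.00239, adjusted p = 0.00478) and 0.682 without df14 and ys34 (permutation adjusted p = 0.0378), but within groups it did not pass (r = 0.767 in cultivated and 0.673 in wild lines, exact permutation adjusted p = 0.0583 and 0.123).

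The share of β-type counts among all β-conglycinin counts, with the α pair taken once, varied between lines and was at most 1.60% in every line but ys34. This share is not per transcript length and is compared between lines only. In cultivated lines it was lowest in df43 at 0.0876% (95% Wilson interval 0.0589 to 0.130%), had a median of 0.343% and was highest in df14 at 1.60% (1.04 to 2.45%). In wild lines it was lowest in ys26 at 0.0156% (0.0105 to 0.0230%), had a median of 0.201% and was highest in ys34 at 7.24% (4.51 to 11.4%). The denominator in ys34 was 221 counts, against 160557 in ys26. In ys26 the β genes had 25 counts together, and in ys34 they had 16. Reads shared between near-identical subunit genes may have been counted for either, and their part in the low β counts was not tested. In ys26 the 75523 counts of the α′ gene stood beside 10 counts of Glyma.20G148200 and 15 of Glyma.20G146200.

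The log2 ratio of each β gene to the α′ gene was also taken per line. Glyma.20G148200 over the α′ gene averaged -7.52 ± 1.75 across the 6 cultivated lines (SD) and -8.11 ± 4.38 across the 7 wild lines (SD), where leaving out ys26 gave -7.35 and leaving out ys29 gave -8.87. Glyma.20G146200 over the α′ gene averaged -7.61 ± 1.76 in cultivated lines and -7.40 ± 3.78 in wild lines, where leaving out the same lines gave -6.61 and -8.11. The group means lay within the spread of either group. Wild lines held both extremes, -12.6 in ys26 and -3.56 in ys29 for Glyma.20G148200.

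The α-type genes did not keep a fixed ratio to each other. The log2 ratio of the α pair to the α′ gene averaged 0.82 ± 0.93 over the 6 cultivated lines (SD), from -0.51 in df12 to 2.31 in df3. In wild lines it averaged 1.09 ± 1.96 (SD, n = 7), from -0.30 in ys34 to 4.53 in ys29, and without ys29 the wild mean was 0.52. Line ys29 held 23.3 counts of the pair for each α′ count, ys16 held 9.75 and df3 held 4.96. Their α′ levels were 10.6 CPM in ys29, 15.1 CPM in ys16 and 136 CPM in df3. A low α′ level alone did not go with a high ratio, since ys34, the lowest line, held 0.810 counts of the pair for each α′ count. At the upper end of the α′ order df12 held 0.700 and ys1 held 1.02. Line ys29 differed from ys34 by 1.38 times in the α′ gene, whose intervals overlapped, and by 39.6 times in the α pair. The share of the pair in α-type counts, also not per transcript length, was 62.8 ± 14.0% in cultivated lines and 62.0 ± 21.7% in wild lines.

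**Figure D3:**
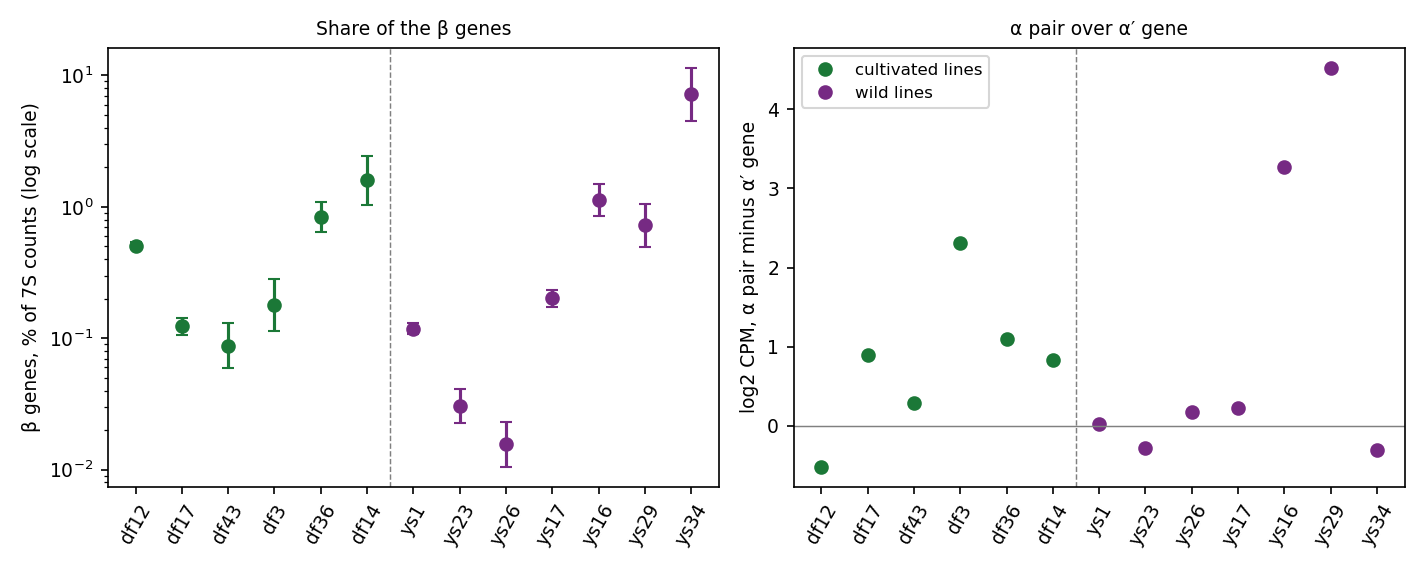
Left, percent of β-conglycinin counts that came from the β genes (log scale) with 95% Wilson intervals; right, log2 CPM of the α pair minus that of the α′ gene; cultivated lines stand left of wild lines, each group ordered by its α′ level. The β share is highest in wild ys34 (7.24%), and the ratio of the pair to the α′ gene is highest in wild ys29 (log2 ratio 4.53). Neither is per transcript length.

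None of the 5 genes passed the test between cultivated and wild seeds. By the edgeR quasi-likelihood test with Benjamini-Hochberg adjustment over all genes, 0 of 5 were called, where 0.0446% of all 31420 tested genes (14 of them) were called. Before adjustment, 1 of the 5 had p under 0.05, as had 18.9% of all tested genes. DESeq2 gave an adjusted p for 4 of the 5 and called 0 of them, where it called 4.07% of all genes. The groups overlapped for all 5 genes, and they did not overlap for 1.10% of tested genes. With the α pair taken once, the 4 measurements had a median log2 fold change of 0.23, with the 2 α-type values below 0 and the 2 β values above it, and the median over all tested genes was -0.015. Counting both genes of the pair would give -0.50.

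The α′ gene averaged 2140 ± 3665 CPM over 6 cultivated lines (SD) and 3029 ± 3534 CPM over 7 wild lines (SD). Its log2 fold change, cultivated over wild, was -0.50 with a standard error of 1.49 (edgeR adjusted p = 0.883). The α pair averaged 2162 ± 2730 CPM in cultivated and 3123 ± 3523 CPM in wild lines, and both of its genes had a log2 fold change of -0.53 (SE 1.22, edgeR adjusted p = 0.844). Without ys1 the fitted values of the α′ gene and of Glyma.20G148300 turned to 0.12 and 0.082.

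The largest fitted difference among the 5 was in a β gene and rested on 1 line. Glyma.20G148200 averaged 7.43 ± 14.4 CPM in cultivated and 1.49 ± 1.46 CPM in wild lines, with a log2 fold change of 2.30 (SE 0.945; edgeR adjusted p = 0.215). Without df12 its log2 fold change was 0.081 (edgeR adjusted p = 0.960). Glyma.20G146200 averaged 8.62 ± 17.7 CPM in cultivated and 4.40 ± 7.36 CPM in wild lines, with a log2 fold change of 0.95 (SE 1.12; edgeR adjusted p = 0.675). Its value turned to -1.62 without df12 (edgeR adjusted p = 0.372) and was 2.34 without ys1 (edgeR adjusted p = 0.290). With standard errors of 0.945 to 1.49 on the log2 scale, differences of several fold between the groups would not have been detectable here.

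**Figure D4:**
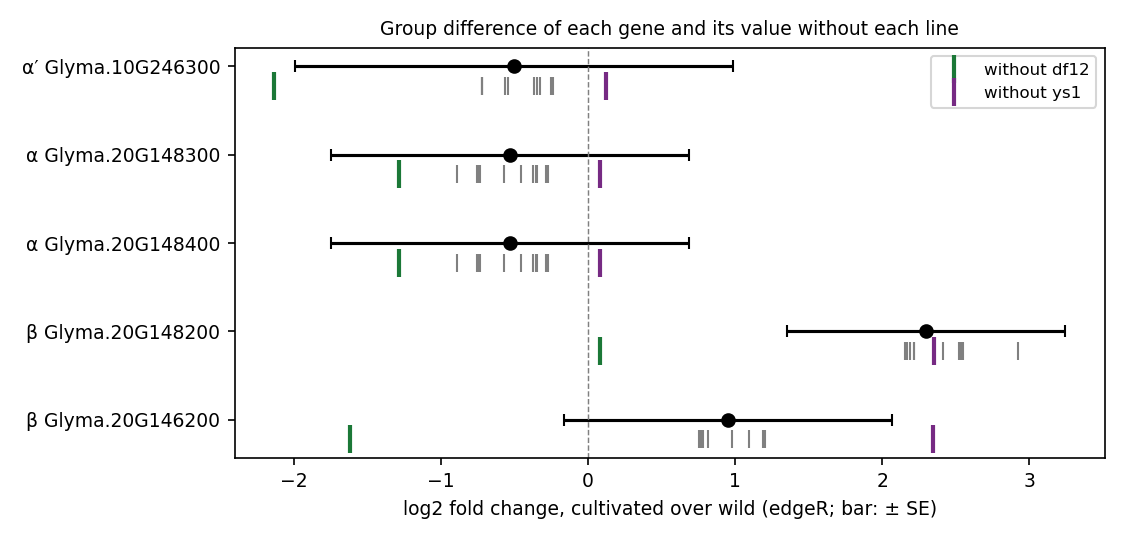
Log2 fold change of each gene, cultivated over wild (horizontal axis; black points with ± SE from edgeR), with ticks below for the value without each line in turn, those without df12 and without ys1 in colour. The α′ and α values cross 0 without ys1, and the β gene Glyma.20G146200 crosses 0 without df12.

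The glycinin genes, which encode the other main reserve globulin, were set beside the β-conglycinin genes. Of 6 glycinin identifiers 4 were measured and tested, and edgeR called 0 of the 4 higher and 0 lower in cultivated seeds, with 0 at an unadjusted p under 0.05. Glyma.10G037100 ranged from 0.052 CPM (df14) to 1599 CPM (df12) over cultivated lines, and from 0.679 CPM (ys34) to 3613 CPM (ys1) over wild lines. Like the α′ gene, it was thus highest in the same line of each group. The other 2 glycinin identifiers, and 2 neighbours of the α′ gene, had no counts listed under those identifiers.

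The pattern of the glycinin genes over the lines was set beside that of the α′ gene and of each β gene, with no test of the difference. Among 15717 other genes with a mean of at least 10 CPM, ordered by Pearson r of log2 CPM with the α′ gene over 13 lines, Glyma.03G163500 came 17th (r = 0.966), Glyma.19G164900 34th (0.946), Glyma.10G037100 44th (0.939) and Glyma.19G164800 490th (0.756). In the order by likeness to Glyma.20G148200 the same 4 genes came 588th (0.540), 934th (0.485), 669th (0.525) and 749th (0.514). By likeness to Glyma.20G146200, an order added after the data were seen, they came 194th (0.697), 166th (0.705), 157th (0.708) and 439th (0.637), in each order listed as Glyma.03G163500, Glyma.19G164900, Glyma.10G037100 and Glyma.19G164800. Leaving the glycinin genes aside, Glyma.10G028300 (r = 0.992) and Glyma.U020300 (r = 0.989) were most like the α′ gene, and both were lowest in ys34 and highest in df12. Glyma.19G096200 and Glyma.09G117100 were most like Glyma.20G148200 (r = 0.848 for both) and were highest in df12, at 25.1 and 19.2 CPM. Their lowest values were 13.5 CPM (df14) and 10.2 CPM (ys16), a far narrower range than the 71.1-fold of Glyma.20G148200. These correlations are descriptions with 1 library per line, and the products of these 4 genes were not annotated here.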

How the data were processed

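Seed RNA of 13 soybean lines was analysed from the deposited read counts per gene, whole numbers that the authors had not normalized as far as the values show. Per the labels' protocols a stranded mRNA kit was used. Per the submitters' processing notes Trim Galore 0.3.3, TopHat2, SAMtools and edgeR were used, in roles not stated. For the counting tool, its treatment of multiply matching or antisense reads, the genome build and the gene models, the sources used here give nothing. Of 59365 genes in a RefSeq table of Glycine soja (ASM419377v2), 0 matched an identifier, so no sequence, length or position was used. The members and lists were chosen with earlier results of these data known.

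Group differences were tested by quasi-likelihood in edgeR 4.0.16 (R 4.3.3; TMM factors, filterByExpr, 31420 genes, Benjamini-Hochberg at 0.05); a standard error is the absolute log2 fold change over the square root of F. The prior count of log2 CPM was 2. The α pair is the mean of its genes. Alternatives were upper-quartile and RLE factors, a filter left out or made stricter (1 CPM in 6 lines and a mean of 5 CPM), DESeq2 1.42.0, limma 3.58.1 voom with quality weights, an exact permutation test over 1716 splits, a prior count of 0.5, and leaving out each line. Relations used 100000 permutations, or all orders within 6 or 7 lines (scipy 1.17.1 and numpy 2.4.6 in Python 3.11.15). The fits were tested on simulated data with changes planted in genes of low spread between lines. That simulation does not show how the fits handle genes as variable as the 5 members. Figures were drawn with matplotlib 3.10.9. The text names all 5 members, the glycinin list and the 2 genes most like Glyma.10G246300 and the 2 most like Glyma.20G148200. Glyma.15G049200, Glyma.08G183500 and Glyma.20G196600 served as a check of the tissue.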

Additional observations from a re-analysis of the deposited data

Results flagged for a closer look

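The line farthest from the others was tested in 18 groups of lines, and 2 lay beyond the 95% limit of Dixon's test, where chance alone gives about 5% of groups. In wild line ys34 the β genes made up 7.24% of β-conglycinin counts, against 1.13% in the next wild line. That share rests on 16 β counts of 221. In wild line ys1 the log2 ratio of Glyma.20G148200 over Glyma.20G146200 was -3.44, against -0.83 in the next wild line.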

How the results depend on the processing

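No paired analysis was possible because the labels give no replicate number that cultivated and wild lines share. None of the 5 genes passed under any alternative that gave an adjusted p, but signs were not stable, except for Glyma.20G148200. That gene kept its sign but ran from 0.081 to 2.92 over lines left out in turn. Relative to the edgeR value of -0.50, the log2 fold change of the α′ gene was 0.26 with limma voom and 0.24 as the difference of means in the exact permutation test (p = 0.909), and ran from -2.13 to 0.12 over lines left out in turn. Glyma.20G148300 ran from -1.29 to 0.082 and Glyma.20G148400 from -1.29 to 0.081, and limma voom gave the second 3.36e-05. Glyma.20G146200 ran from -1.62 to 2.34. Glyma.20G148200 could not be fitted under the stricter filter. For Glyma.20G146200 DESeq2 gave a log2 fold change of 2.36 (SE 1.01), beside 0.95 in edgeR, with neither a p nor an adjusted p.

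The count of called genes was 23 with upper-quartile factors, 25 with no filter and 1279 with DESeq2, and 9 to 32 over lines left out. The r of the α′ gene with Glyma.20G148200 was 0.506 without the 2 farthest lines and 0.438 in wild lines alone, neither passing the threshold, and 0.509 to 0.662 over lines left out. Its call was lost without df12 (0.509), df14 (0.527), df3 (0.556), ys29 (0.552) or ys34 (0.524). The r of the α pair with Glyma.20G148200 passed with a prior count of 0.5 (0.549, permutation adjusted p = 0.049), and ran from 0.499 to 0.635 over lines left out, passing without ys23 (0.588) or ys26 (0.635). The relations lost in wild lines alone were those of Glyma.20G146200 with the α′ gene (0.670), with the α pair (0.673, and 0.767 in cultivated lines alone) and with Glyma.20G148200 (0.712, and 0.714 without the 2 farthest lines). Their causes were not tested, and fewer lines were used in each. Mean ratios and shares moved by less than the SD between lines, but that SD is wide and single lines moved some of them. The cultivated mean β share was 0.555%, and 0.347% without df14, while the wild one was 1.35%, and 0.370% without ys34. With both genes of the pair counted it was 0.345% in cultivated and 0.905% in wild lines. The wild mean log2 ratio of the α pair to the α′ gene was 1.09, and 0.52 without ys29. The ratio of the α pair to the α′ gene and RLE factors for ratios were added after seeing the data. Counts of 8 to 34 for the β genes in most lines limit what can be said of their order.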
